A study of Mus musculus with 7 samples.

Results

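The 10 genes described here form the core of the mammalian circadian clock: Arntl (Bmal1), Clock, Per1, Per2, Per3, Cry1, Cry2, Nr1d1 (REV-ERBα), Nr1d2 (REV-ERBβ) and the output gene Dbp. They were picked by symbol out of 24346 genes in the deposited table. All 10 passed the filter on low values, a mean of at least 0.5 FPKM (fragments mapped to a gene, scaled to its length and to the size of the library), as did 14151 genes in all. RNA was sequenced from primary neurospheres, floating clusters grown from dissociated hippocampus, with the cells of each mouse giving 1 library, in 7 libraries of 2-month-old mice. The 4 control libraries came from littermates labelled wild type, of strain C57/BL6, and by the study's methods littermates without Cre that carried floxed Med23 served as controls. The 3 Med23 CKO libraries, also called mutant below, came from Nestin-CreER:Med23 flox/flox mice, in which tamoxifen lets Cre remove part of Med23, a subunit of the Mediator complex that links transcription factors to RNA polymerase II. Both groups received tamoxifen by gavage, 200 mg/kg a day for 5 days. The Nestin promoter that drives Cre is active in neural stem cells and, by the study's account, also in endothelial cells, and in which cells of these cultures Med23 was deleted was not tested. Each value below was compared between Med23 CKO and control to see whether the clock genes differed with loss of Med23, and between mice to see which of them moved together.

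The clock is a feedback loop of transcription. CLOCK and BMAL1 bind E-box sequences as a pair and switch on the Per and Cry genes, whose proteins return to the nucleus and block the pair that made them. REV-ERB proteins form another loop by repressing Arntl and Clock through ROR elements, to which activating ROR receptors also bind, and DBP acts on D-box sequences in further clock genes. Adult neural stem cells carry this clock, and in a culture each cell can run at its own phase. The time of day at which the neurospheres were collected was not given in the sources used here. In bulk RNA of this kind, fewer cells of a type and less RNA per cell cannot be told apart.

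Stretches whose letters match the known elements of the clock are shown here, and binding of clock proteins to them was not tested. They come from RefSeq promoter windows on GRCm38.p6 (mm10), which run from 250 bases before to 50 bases after a start site. Windows were found for 9 of the 10 genes, 13 in all, and Per2 had none. Both strands were searched for the E-box CACGTG, its variant CACGTT, the D-box TTANGTAA, the cAMP response element TGACGTCA and the ROR element. No motif shares its bases with another in the lines printed. Capitals mark a match, each line runs 5′ to 3′ on the gene's strand, and the variant E-box reads AACGTG where it lies on the opposite strand.
Per1, E-box, chr11:69098753-69098818, + strand: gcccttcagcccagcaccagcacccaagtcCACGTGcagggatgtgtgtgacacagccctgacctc
Cry1, variant E-box and E-box, chr10:85185079-85185163, - strand: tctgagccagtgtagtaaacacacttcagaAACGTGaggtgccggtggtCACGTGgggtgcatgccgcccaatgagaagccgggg
Cry2, variant E-box, chr2:92434200-92434265, - strand: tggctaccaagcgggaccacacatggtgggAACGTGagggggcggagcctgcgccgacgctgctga
Nr1d1, variant E-box, chr11:98775378-98775435, - strand: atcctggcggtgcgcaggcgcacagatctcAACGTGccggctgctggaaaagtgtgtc
Per3, both D-boxes, chr4:151044786-151044900, - strand: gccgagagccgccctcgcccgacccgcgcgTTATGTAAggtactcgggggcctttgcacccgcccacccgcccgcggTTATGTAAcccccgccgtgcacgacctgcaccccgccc
Arntl, ROR element, chr7:113207528-113207556, + strand: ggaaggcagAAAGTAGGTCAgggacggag

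The stretches of Per1, Cry1, Cry2, Nr1d1 and Per3 lie outside annotated exons (GENCODE M21), upstream of the start site, and that of Per1 falls inside the gene body because a longer Per1 transcript starts further upstream. The Arntl element lies in an annotated exon at the 5′ end of the gene, with its first base at position 27 when the start site is 1. The E-box was found in 7.15% of all 32851 windows of this length, the variant E-box in 4.68%, the D-box in 2.32% and the ROR element in 0.384%. Of the 13 windows of the clock genes, 2 held the E-box, 3 the variant E-box, 1 the D-box and 1 the ROR element. The cAMP response element was found in 1.79% of all windows and in none of the 13 windows of the clock genes. The windows of Clock, Nr1d2 and Dbp held none of the motifs, which says only that these letters are absent from those bases.

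Med23 itself (chr10:24869986-24913681, + strand) read 11.4, 10.3, 12.9 and 10.1 FPKM in the control libraries of mice WT_215, WT_116, WT_213 and WT_220. It read 9.97, 9.27 and 8.12 FPKM in the Med23 CKO libraries of mice KO_117, KO_214 and KO_218, an order kept for all values below. Every Med23 CKO value lay under every control value, but the log2 fold change was -0.26 (SE 0.18, exact permutation p = 0.0571). The FPKM covers the whole gene, so transcript that lacks the deleted part still counts towards it. The study itself reports the deletion by qRT-PCR of Med23 transcript in primary neurospheres and by western blot of hippocampal tissue. All fold changes are Med23 CKO minus control of log2(FPKM + 1), so changes of genes at low levels come out too small.

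The libraries differed in more than genotype. The 7 libraries listed 16841 to 18113 genes above 0, and read depth is unknown. The neural stem cell markers were all above 0 in every library and summed to between 1877 and 3807 FPKM over the control mice and to 2053 to 3808 FPKM over the mutant mice. The cells were not stem cells alone, since Mbp, a myelin gene of mature oligodendrocytes, ran from 238 to 2234 FPKM over the control mice and from 66.5 to 1515 FPKM over the mutant mice. The 10 proliferation markers summed to 361 to 981 FPKM in control and spread from 232 FPKM in Med23 CKO mouse KO_214 to 1290 FPKM in Med23 CKO mouse KO_117. Their mean of log2(FPKM + 1) was lower in Med23 CKO for all 10, as for 56.2% of all genes tested, and none was at an unadjusted p under 0.05. Pcna was nearly level, with a log2 fold change of -0.0003. By the mean of FPKM itself they split, with Mki67 higher in Med23 CKO (40.9 against 38.6 FPKM) and Mcm2 lower (43.1 against 49.4 FPKM). Med23 CKO mouse KO_214 also had the highest summed level of 10 microglia markers (322 FPKM, with 14.1 and 49.7 in the other mutants and 12.8 to 76.4 in control), 8 endothelial markers (123 FPKM, with 6.60 and 40.7 in the other mutants and 10.4 to 69.7 in control) and 7 mural cell and fibroblast markers (297 FPKM, with 5.84 and 49.6 in the other mutants and 8.09 to 79.7 in control). All tested markers of these lists, 9, 8 and 7 genes, had the higher mean of log2(FPKM + 1) in the mutants. Of these, 0 were at an unadjusted p under 0.05. Among all genes tested, 6196 had the higher mean in the mutants and 7955 the lower. The microglia marker Cx3cr1 was under the filter on low values and not tested. Its mean went the other way, at 0.330 FPKM in Med23 CKO against 0.382 FPKM in control. No marker named or summed here was at 0 in any library. The 7 neuron markers summed to 31.8 to 77.7 FPKM over the control mice and to 41.3 to 56.3 FPKM over the mutant mice.

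None of the 10 clock genes rose or fell in Med23 CKO by the test. At an adjusted p under 0.05 by limma no clock gene was called, and of all genes tested 0% were. At an unadjusted p under 0.05, 0 of 10 clock genes were lower and 0 of 10 higher, where 0.996% and 0.502% of all genes tested were. The mean of log2(FPKM + 1) was lower in Med23 CKO for 8 clock genes and higher for 2, with a median log2 fold change of -0.14. By the mean of FPKM itself 7 were lower, since that of Dbp was higher in Med23 CKO (6.21 against 5.54 FPKM). Over all genes tested the mean of log2(FPKM + 1) was lower for 56.2% and the median log2 fold change was -0.03. With 4 libraries against 3, the smallest p that the exact permutation test can give for a gene is 0.0286, and the lowest among the clock genes was 0.0571. The groups lay apart with the mutant libraries underneath for 1 clock gene, Arntl, as they did for 1.53% of all genes tested. They lay apart with the mutant libraries on top for 0 clock genes and for 0.784% of all genes tested.

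**Figure D1:**
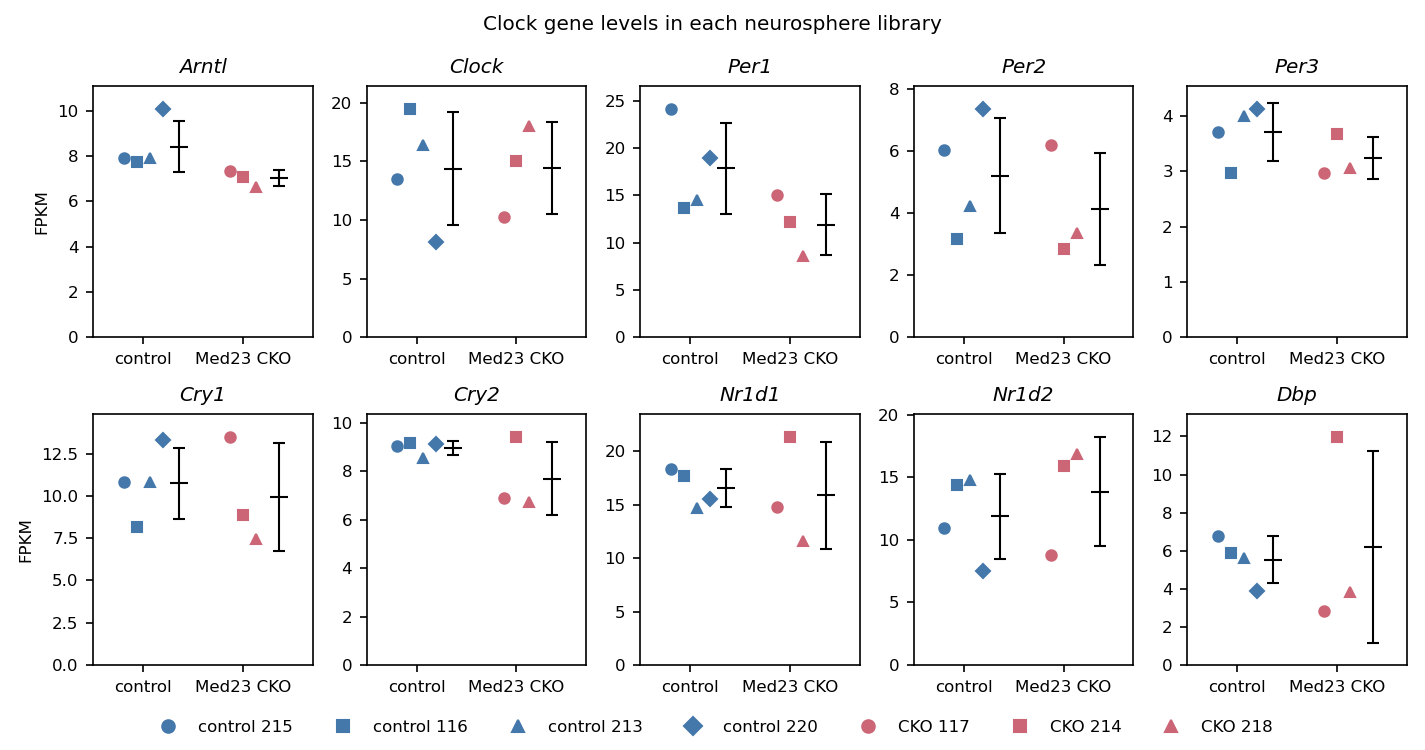
Level of each clock gene in FPKM (vertical axis, from 0) in the 4 control (blue) and 3 Med23 CKO (red) libraries, with 1 symbol per mouse and the group mean ± SD in black. Only for Arntl do the groups lie apart, and Dbp of Med23 CKO mouse KO_214 stands at 11.99 FPKM above all other Dbp values.

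Arntl (chr7:113207465-113314126, + strand, GENCODE M21 on mm10) and Clock (chr5:76209868-76304792, - strand) encode the activating pair. Arntl stood at 7.91, 7.74, 7.91 and 10.1 FPKM in the control mice and at 7.36, 7.09 and 6.64 FPKM in the mutant mice, so the groups did not overlap. The gap between the closest values, 7.74 and 7.36 FPKM, was small beside the spread of the control libraries, in which mouse WT_220 stood above the other three. The log2 fold change of Arntl was -0.22 (SE 0.18), with an exact permutation p of 0.0571 and an adjusted p of 0.9999 by limma. After each library was centred on its median gene, the Arntl groups overlapped. Clock stood at 13.5, 19.5, 16.4 and 8.10 FPKM in the control mice and at 10.2, 15.0 and 18.0 FPKM in the mutant mice, so the Med23 CKO values lay within the control range. Its log2 fold change was 0.03 (SE 0.32, exact permutation p = 0.943). Arntl held nearly the same level in every mouse, with 1.52-fold between the highest and lowest library, and Clock varied 2.40-fold. The FPKM of Clock over that of Arntl therefore ran from 0.803 in control mouse WT_220 to 2.70 in Med23 CKO mouse KO_218, with both genotypes on either side.

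Per1 (chr11:69095217-69109960, + strand), Per2 (chr1:91415982-91459324, - strand) and Per3 (chr4:151003652-151044665, - strand) encode the Period repressors. Per1, which also responds within minutes to hours to growth factors and glucocorticoids, had the largest fold change of the 10 genes. It stood at 24.2, 13.7, 14.6 and 19.0 FPKM in the control mice and at 15.0, 12.2 and 8.57 FPKM in the mutant mice. The Med23 CKO libraries of mice KO_214 and KO_218 were below all control libraries, while that of mouse KO_117 lay above the lowest 2 control libraries. The log2 fold change was -0.54 (SE 0.27), with an exact permutation p of 0.171 and an adjusted p of 0.9999 by limma. A pair of settings took Per1 past an unadjusted p of 0.05 in limma: without Med23 CKO mouse KO_117 the log2 fold change was -0.71 (SE 0.29), and with libraries weighted by their quality it was -0.83. In these settings 410 and 887 of the 14151 genes tested were lower at that threshold, against 141 in the main setting.

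Per2 stood at 6.04, 3.18, 4.24 and 7.36 FPKM in the control mice and at 6.19, 2.83 and 3.36 FPKM in the mutant mice. Its low and high values occurred in both genotypes, and the log2 fold change was -0.28 (SE 0.33, exact permutation p = 0.457). Per3, with both D-boxes shown above, was the lowest of the 10 genes in control, at 3.71 ± 0.521 FPKM (SD, n = 4) against 3.23 ± 0.381 FPKM (SD, n = 3) in Med23 CKO. Its 7 values spanned only 1.39-fold, and the log2 fold change was -0.15 (SE 0.19, exact permutation p = 0.257).

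Cry1 (chr10:85131700-85185064, - strand) and Cry2 (chr2:92403646-92434043, - strand) encode the cryptochromes, which bind the activating pair together with the Period proteins. Cry1 stood at 10.8, 8.13, 10.8 and 13.3 FPKM in the control mice and at 13.5, 8.87 and 7.44 FPKM in the mutant mice, so the Med23 CKO group held both its highest and its lowest value. The log2 fold change of Cry1 was -0.12 (SE 0.25, exact permutation p = 0.657). Cry2 read 9.03, 9.18, 8.56 and 9.14 FPKM in control, with the smallest SD of any clock gene in either group, 0.285 FPKM. In Med23 CKO it read 6.92, 9.43 and 6.72 FPKM, with mice KO_117 and KO_218 below all control libraries and mouse KO_214 above them. The log2 fold change of Cry2 was -0.21 (SE 0.18, exact permutation p = 0.229), and without mouse KO_214 it was -0.35 (SE 0.18), still short of an unadjusted p of 0.05 in limma. Reads of Cry2 and of the noncoding D930015M05Rik on the other strand share 295 exonic bases, and D930015M05Rik reached at most 0.649 FPKM in any library.

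Nr1d1 (chr11:98767932-98775333, - strand) and Nr1d2 (chr14:18204054-18239127, - strand) encode the REV-ERB repressors of Arntl. Nr1d1 stood at 18.4, 17.7, 14.7 and 15.5 FPKM in the control mice and at 14.7, 21.4 and 11.6 FPKM in the mutant mice. Mouse KO_214 gave the highest and mouse KO_218 the lowest value of the 7, both of them Med23 CKO. Between groups the log2 fold change was -0.09 (SE 0.23, exact permutation p = 0.714). Nr1d1 shares 263 exonic bases at its 3′ end with Thra, the thyroid hormone receptor gene on the opposite strand, and the library kit does not mark strand, so reads there cannot be told apart. Thra stood at 48.0, 37.7, 34.8 and 53.4 FPKM in the control mice and at 86.0, 38.0 and 30.5 FPKM in the mutant mice, highest in mouse KO_117, where Nr1d1 was at the level of the lowest control library. Nr1d2 stood at 10.9, 14.4, 14.8 and 7.50 FPKM in the control mice and at 8.83, 15.9 and 16.9 FPKM in the mutant mice. Its mean was higher in Med23 CKO, by a log2 fold change of 0.20 (SE 0.31, exact permutation p = 0.600), with the value of mouse KO_117 inside the control range. The FPKM of Nr1d1 over that of Nr1d2 ran from 0.685 in Med23 CKO mouse KO_218 to 2.07 in control mouse WT_220.

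Dbp (chr7:45705088-45710203, + strand) encodes a D-box activator whose own gene is a direct target of CLOCK and BMAL1, and its transcript swings widely through the day in most tissues. It stood at 6.77, 5.89, 5.60 and 3.88 FPKM in the control mice and at 2.81, 11.99 and 3.81 FPKM in the mutant mice. Dbp varied most between mice of the 10 genes, 4.27-fold, and 1 library set its group: mouse KO_214 was the highest of all, while KO_117 and KO_218 were under the lowest control value. The log2 fold change was -0.06 (SE 0.43, exact permutation p = 0.857), and without mouse KO_214 it was -0.59 (SE 0.26, unadjusted p = 0.0623 by limma). Dbp shares 539 exonic bases with Sphk2 on the opposite strand. Sphk2 was also highest in mouse KO_214, at 18.3 FPKM against 10.3 to 12.6 FPKM in the other libraries.

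**Figure D2:**
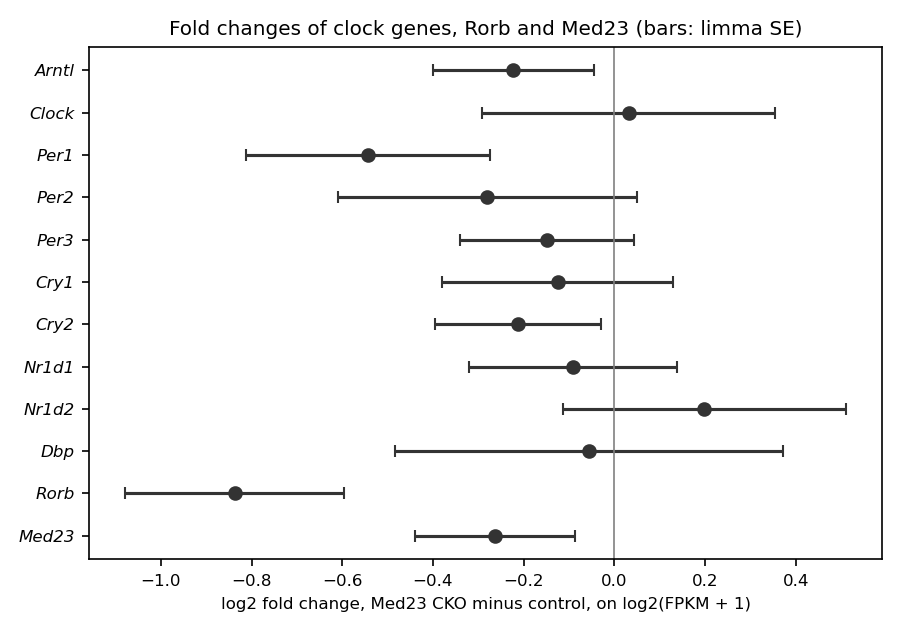
Log2 fold change, Med23 CKO minus control, of the 10 clock genes and of Rorb and Med23 (points, horizontal axis on the log2(FPKM + 1) scale) with the limma standard error as bars. The clock genes run from -0.54 for Per1 to 0.20 for Nr1d2, and Rorb stands at -0.84.

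In the order of their control means, the clock genes ran from Per1 (17.9 ± 4.80 FPKM, SD, n = 4), Nr1d1 (16.6 ± 1.75), Clock (14.4 ± 4.84), Nr1d2 (11.9 ± 3.41), Cry1 (10.8 ± 2.10), Cry2 (8.98 ± 0.285) and Arntl (8.41 ± 1.12) down to Dbp (5.54 ± 1.21), Per2 (5.20 ± 1.86) and Per3. For 8 of the 9 pairs of neighbours in this order the control ranges overlapped, and only Arntl and Dbp stood clear of each other. The values are FPKM and so per length of transcript. In mean level over the 7 libraries the 10 genes sat between percentile 23.7 (Per3) and percentile 60.9 (Nr1d1) of the genes tested. In spread between libraries of a group, Arntl (residual SD 0.13 on the log2 scale, percentile 4.80 of the genes tested), Per3 (percentile 7.75) and Cry2 (percentile 8.22) were among the steadiest genes tested, and Dbp (residual SD 0.63, percentile 77.2) was the most variable of the 10. The median residual SD was 0.35 for the clock genes and 0.38 for all genes tested.

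The clock genes moved between mice in groups that did not follow genotype. Clock and Nr1d2 were both low in control mouse WT_220 and Med23 CKO mouse KO_117 and both high in Med23 CKO mouse KO_218 and control mice WT_116 and WT_213, while Per2 and Cry1 were high in WT_220 and KO_117 and low in KO_218 and WT_116. Nr1d1, Dbp and Cry2 shared another pattern, highest in Med23 CKO mouse KO_214 and under their own means in Med23 CKO mice KO_117 and KO_218. Of the 45 pairs, 10 had an unadjusted exact permutation p under 0.05 for Pearson's r over the 7 libraries, and 0 passed after Benjamini-Hochberg adjustment, for r or for Spearman's rho. The share of pairs of other genes under the same threshold was not determined, so the count cannot be called particular to clock genes. The points share library, depth and cell makeup, and the values that follow describe these 7 libraries.

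**Figure D3:**
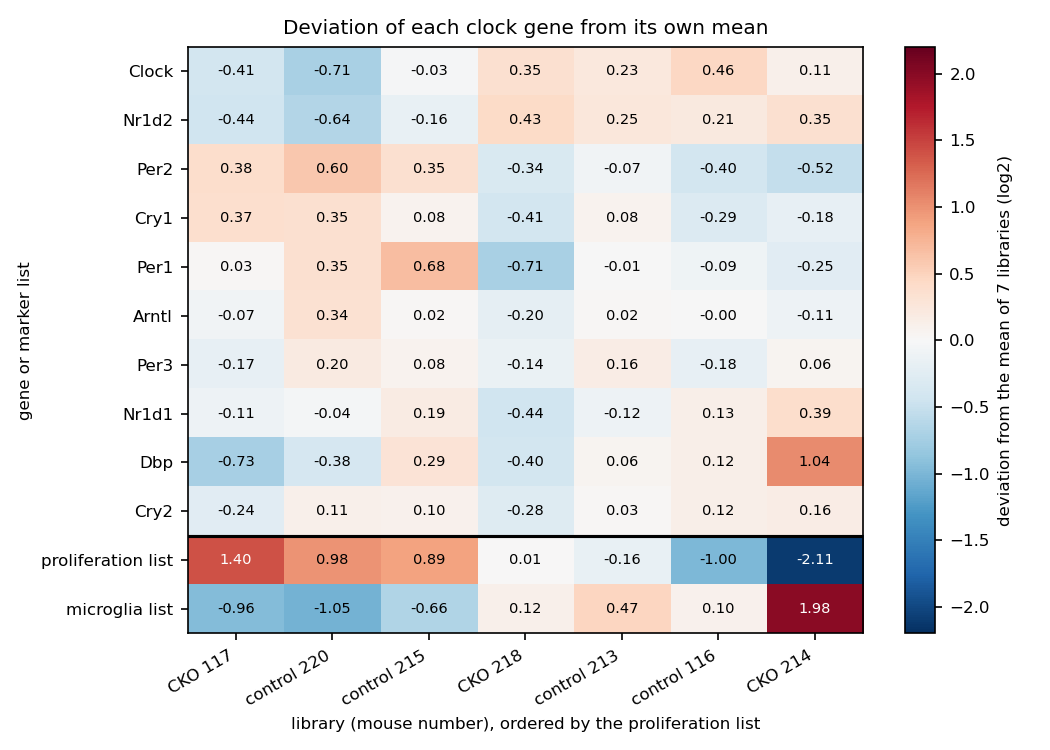
Difference of each clock gene from its own mean over the 7 libraries, and the same for the mean of the proliferation and microglia markers, on the log2(FPKM + 1) scale (colour and number), with libraries ordered by the proliferation markers. Clock and Nr1d2 turn from -0.41 and -0.44 in Med23 CKO mouse KO_117 to 0.35 and 0.43 in Med23 CKO mouse KO_218, and Per2 and Cry1 turn the other way.

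Clock and Nr1d2 rose and fell together, with r = 0.93 (exact permutation p = 0.00337, adjusted 0.0759) and rho = 0.75 (exact permutation p = 0.0663, adjusted 0.249). Without the 2 libraries farthest from the median of Clock, r was 0.61. For each pair below, the farthest libraries were taken by the gene that comes earlier in the opening list of clock genes. For relations to markers they were taken by the marker list. Per2 and Nr1d2 were opposed, with r = -0.94 (exact permutation p = 0.00317, adjusted 0.0759) and rho = -0.82 (exact permutation p = 0.0341, adjusted 0.216), and r was -0.87 without the 2 farthest libraries. Cry1 and Nr1d2 were opposed in the same way, with r = -0.89 (exact permutation p = 0.0105, adjusted 0.0789) and rho = -0.79 (exact permutation p = 0.0480, adjusted 0.216), and r was -0.90 without the 2 farthest libraries. The relations held their sign within the groups: among deviations from the group means, r was 0.95, -0.93 and -0.89 for the same pairs.

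Per2 and Cry1, a Period and a cryptochrome gene, went together with r = 0.89 (exact permutation p = 0.0179, adjusted 0.115) and rho = 0.79 (exact permutation p = 0.0480, adjusted 0.216), and r was 0.75 without the 2 farthest libraries. Clock was opposed to Per2, with r = -0.86 (exact permutation p = 0.0101, adjusted 0.0789) and rho = -0.79 (exact permutation p = 0.0480, adjusted 0.216), and r was -0.63 without the 2 farthest libraries. Clock was opposed to Cry1 as well, with r = -0.88 (exact permutation p = 0.00952, adjusted 0.0789) and rho = -0.82 (exact permutation p = 0.0341, adjusted 0.216), and r was -0.71 without the 2 farthest libraries. Per1 and Per2 had r = 0.74 (exact permutation p = 0.0494, adjusted 0.206) and rho = 0.79 (exact permutation p = 0.0480, adjusted 0.216), and r was 0.91 without the 2 farthest libraries.

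Nr1d1 and Dbp, both targets of the activating pair, had r = 0.80 (exact permutation p = 0.0315, adjusted 0.177) and rho = 0.82 (exact permutation p = 0.0341, adjusted 0.216), and r was 0.71 without the 2 farthest libraries. Cry2 and Nr1d1 had r = 0.81 (exact permutation p = 0.00635, adjusted 0.0789) and rho = 0.86 (exact permutation p = 0.0238, adjusted 0.216), and r was 0.80 without the 2 farthest libraries. The REV-ERB paralogs showed no relation over these 7 libraries, with r = -0.01 (exact permutation p = 0.989) and rho = -0.18 (exact permutation p = 0.713) for Nr1d1 and Nr1d2, and r was 0.24 without the 2 farthest libraries. Nr1d1 and its target Arntl had r = 0.13 (exact permutation p = 0.773) and rho = 0.07 (exact permutation p = 0.906), and r was -0.43 without the 2 farthest libraries. For both of these pairs the adjusted p was above 0.9 for r, and neither had a sign that every library left out would keep: without KO_218, r was 0.52 for Nr1d1 and Nr1d2 and -0.41 for Arntl and Nr1d1. Arntl and Nr1d2 had r = -0.73 (exact permutation p = 0.0393, adjusted 0.196) and rho = -0.68 (exact permutation p = 0.110, adjusted 0.308). Their r was -0.03 without the 2 libraries farthest from the median of Arntl, so its size rests on those libraries. With each library left out in turn, r ran from -0.94 without KO_117 to -0.39 without WT_220.

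**Figure D4:**
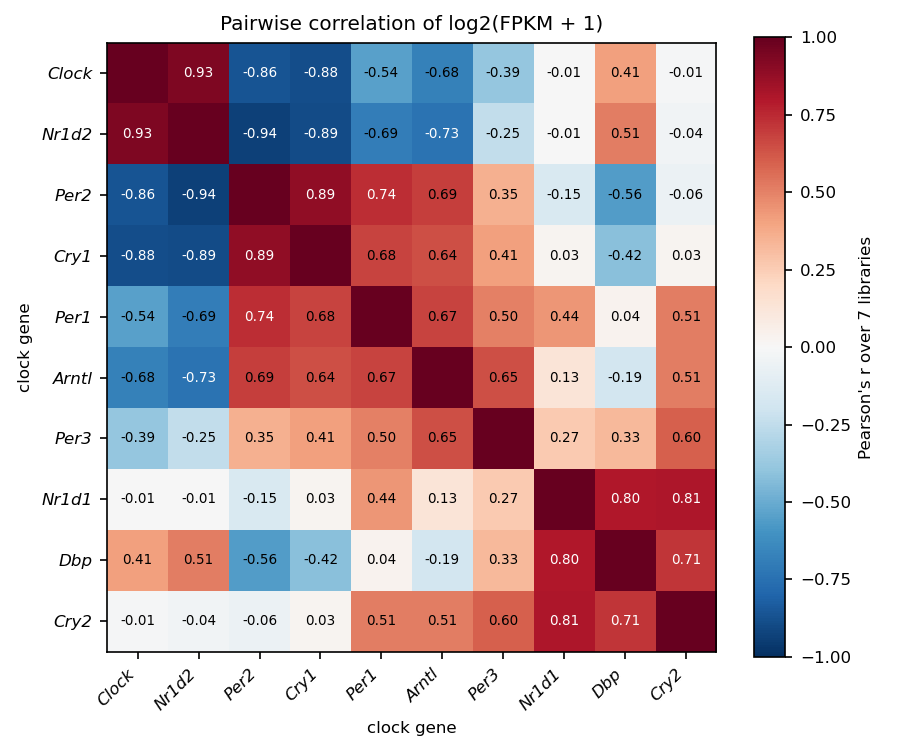
Pearson's r of log2(FPKM + 1) over the 7 libraries for each pair of clock genes (rows and columns, colour and number). Clock with Nr1d2 (0.93), Per2 with Cry1 (0.89), and Nr1d1 with Dbp (0.80) and Cry2 (0.81) are positive, and Clock or Nr1d2 with Per2 or Cry1 run from -0.86 to -0.94.

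The same libraries differed in the markers of dividing cells and of microglia, and the relation of the clock genes to both lists was examined after the data had been seen. Of the 20 relations, 6 had an unadjusted exact permutation p under 0.05 and 0 passed after adjustment. The share of other genes related to these lists at the same threshold was not determined, so the count cannot be called particular to clock genes. Per2 followed the proliferation markers with r = 0.89 (exact permutation p = 0.00694, adjusted 0.101) and rho = 0.93 (exact permutation p = 0.00675, adjusted 0.123), and r was 0.91 without the 2 farthest libraries. Nr1d2 ran against them, with r = -0.76 (exact permutation p = 0.0462, adjusted 0.154) and rho = -0.71 (exact permutation p = 0.0881, adjusted 0.252), and r was -0.74 without the 2 farthest libraries. Dbp ran against them too, with r = -0.80 (exact permutation p = 0.0248, adjusted 0.129) and rho = -0.71 (exact permutation p = 0.0881, adjusted 0.252), but r was -0.20 without the 2 farthest libraries, so this value rests on those libraries.

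With the microglia markers the signs turned over. Both lists themselves ran opposite to each other, so their relations to a clock gene are not separate observations. As deviations from their own means on the log2 scale, the proliferation and microglia lists stood at 1.40 and -0.96 in mouse KO_117 and at -2.11 and 1.98 in mouse KO_214. Per2 had r = -0.85 (exact permutation p = 0.0101, adjusted 0.101) and rho = -0.86 (exact permutation p = 0.0238, adjusted 0.159), and r was -0.82 without the 2 farthest libraries. Nr1d2 had r = 0.79 (exact permutation p = 0.0315, adjusted 0.129) and rho = 0.89 (exact permutation p = 0.0123, adjusted 0.123), and r was 0.92 without the 2 farthest libraries. Dbp had r = 0.81 (exact permutation p = 0.0323, adjusted 0.129) and rho = 0.50 (exact permutation p = 0.267, adjusted 0.410), and r was 0.38 without the 2 farthest libraries, so this value rests on them. Among deviations from the group means, Per2 kept r = 0.90 with the proliferation and -0.83 with the microglia markers. The part of cell makeup in the levels of the clock genes was not tested.

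The wider clock was described through lists of genes with known roles. Of 13 symbols for partners and relatives of the core genes, 11 were tested, and 8 had a lower and 3 a higher mean of log2(FPKM + 1) in Med23 CKO, the mean counted for each list that follows, with a median log2 fold change of -0.08. Npas2, which can stand in for Clock, ran from 0.183 to 0.730 FPKM and was under the filter. Rorb, a ROR receptor gene of brain and retina, was the gene of the wider lists that passed an unadjusted p under 0.05 by limma. It was lower in Med23 CKO, where 0.996% of all genes tested were lower at that threshold. Rorb stood at 5.61, 4.47, 6.15 and 6.36 FPKM in the control mice and at 3.45, 1.74 and 3.15 FPKM in the mutant mice. Its highest mutant value was under the lowest control value, as for 1.53% of all genes tested. For Rorb the log2 fold change was -0.84 (SE 0.24), with the smallest exact permutation p that the design allows, 0.0286, and an adjusted p of 0.9999 by limma. Of all genes tested, 114 were lower in Med23 CKO at that smallest exact permutation p. With each library left out in turn its log2 fold change stayed between -0.97 and -0.62. Its relative Rora stood at 5.87, 6.20, 6.65 and 5.12 FPKM in the control mice and at 6.15, 9.004 and 9.22 FPKM in the mutant mice, with a log2 fold change of 0.38 (SE 0.21, exact permutation p = 0.0857), and is named here after its values were seen. The 3 partners with the highest levels were Tef, a relative of Dbp that read 28.5 ± 2.16 FPKM with 4 control libraries and 27.1 ± 3.92 FPKM with 3 Med23 CKO libraries (mean ± SD), Bhlhe40, an E-box repressor, at 15.5 ± 7.99 and 13.4 ± 4.99 FPKM, and Timeless, which works at the replication fork in mammals, at 12.03 ± 7.24 and 10.3 ± 10.9 FPKM. None of these 3 passed the test.

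All 15 regulators of clock protein stability and activity were tested, with 12 lower and 3 higher in mean log2(FPKM + 1), 0 at an unadjusted p under 0.05 and a median log2 fold change of -0.07. The 3 highest were Nono, counted as lower on the log2 scale though not in mean FPKM, at 158 ± 47.2 FPKM with 4 control libraries and 161 ± 87.4 FPKM with 3 Med23 CKO libraries (mean ± SD), its RNA-binding partner Sfpq at 127 ± 62.3 and 114 ± 98.3 FPKM, and the kinase subunit Csnk2a1 at 72.9 ± 4.12 and 74.1 ± 8.04 FPKM. Among clock outputs 8 genes were tested, with 5 lower and 3 higher in mean log2(FPKM + 1), 0 at an unadjusted p under 0.05 and a median log2 fold change of -0.14. The highest outputs were the cell cycle inhibitor Cdkn1a at 404 ± 83.3 FPKM with 4 control libraries and 327 ± 149 FPKM with 3 Med23 CKO libraries (mean ± SD), the electron donor Por at 41.7 ± 4.45 and 58.5 ± 35.6 FPKM, and the transcription factor Klf10 at 50.6 ± 37.4 and 16.5 ± 11.2 FPKM. For Klf10 the log2 fold change was -1.38 (SE 0.71, exact permutation p = 0.114), with control values from 12.2 to 97.7 FPKM. Glucocorticoids set the phase of clocks outside the brain's master clock and act on Per1, and of 5 genes of their response 4 were higher and 1 lower in mean log2(FPKM + 1), 0 at an unadjusted p under 0.05, with a median log2 fold change of 0.11. The receptor gene Nr3c1 stood at 17.6 ± 3.85 FPKM with 4 control libraries and 22.3 ± 3.00 FPKM with 3 Med23 CKO libraries (mean ± SD), and its targets Sgk1 at 54.9 ± 27.5 and 52.4 ± 34.7 FPKM and Tsc22d3 at 18.0 ± 6.10 and 20.9 ± 5.87 FPKM.

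Among the 14150 other genes tested, those whose levels over the 7 libraries were most like Nr1d1 were Itpripl1 (r = 0.99), Tmem143 (0.98), Fitm2 (0.98), Slc26a11 (0.97) and Arhgef18 (0.97). Among the clock genes, Cry2 ranked 227th and Dbp 246th in likeness to Nr1d1. The genes most like Arntl were Bax (r = 0.99), Lrrc73 (0.98), Clec11a (0.97), Chchd1 (0.97) and Surf2 (0.97), and the nearest clock gene was Per2 (r = 0.69), which ranked 1136th. Clock and Nr1d2, at -0.68 and -0.73, ranked 13285th and 13617th, near the opposed end. With 14150 genes and 7 libraries high values of r are found by ranking alone, and no p is given.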

How the data were processed

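RNA-seq libraries of primary neurospheres from 7 mice (4 control, 3 Med23 CKO) were used, grouped by the labels' titles. By the study's methods and the submitters' processing notes, libraries were made with the NEBNext Ultra kit, checked with FastQC, trimmed with cutadapt, aligned with Tophat (default parameters, mm10) and quantified with Cuffdiff. The authors deposited FPKM per gene and library, which was the unit used here. Versions of Tophat and Cuffdiff and the annotation were not given in the sources used here. The deposited table also holds Cuffdiff group means, fold changes, p-values and q-values, which are the authors' own comparison and were not used. It has more control libraries than the study's text counts, and none was left out. For neurosphere cultures the study's methods give a younger age at tamoxifen than the labels. Depth is unknown, so the number of libraries limits the precision, and p-values measure the spread between single mice.

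Values were taken as log2(FPKM + 1), and 14151 of 24346 genes with a mean of at least 0.5 FPKM were tested with limma 3.58.1 (R 4.3.3; lmFit and eBayes with trend, two-sided, Benjamini-Hochberg over all genes tested). For 1 gene at a time the two-sided exact permutation test took all 35 ways of dividing 7 libraries into 4 and 3. Pairs of clock genes were compared by r and rho with exact permutation over 5040 pairings, two-sided, adjusted over 45 pairs, and the relations to marker lists over 20. In data simulated for the comparison of Med23 CKO with control, with 200 of 14151 genes changed by 2 on the log2 scale, 137 were recovered with 11 false calls. That change was larger than any seen in the clock genes, and errors were drawn for each gene separately. How well changes of the size seen in the clock genes would be found was not tested. The genes named are Med23, the 10 clock genes, genes of the wider lists at an unadjusted p under 0.05 or with groups apart, the 3 of each wider list with the highest mean FPKM, and the 5 genes most like Nr1d1 and Arntl. Thra, Sphk2 and D930015M05Rik are named for shared exons, Npas2 and Cx3cr1 for failing the filter, and Rora after its values were seen. The clock genes and all lists were chosen with earlier results of these data known. Coordinates are from GENCODE M21 and RefSeq, both on GRCm38. Alternatives were another pseudocount, other filters, quantile normalization, median centring, other limma settings, a covariate for the leading digit of the mouse numbers, and leaving out each library.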

Additional observations from a re-analysis of the deposited data

Results flagged for a closer look

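Arntl in control mouse WT_220, at 10.1 FPKM, stood apart from the other 3 control libraries, which lay between 7.74 and 7.91 FPKM. Its gap to the nearest of them was 0.925 of the group's whole range, above Dixon's critical value for 4 samples. Control groups of 24 genes were examined in this way, and chance flags about 1 in 20 groups. Mouse WT_220 held the highest control value of Arntl, so leaving it out could not make the groups overlap.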

How the results depend on the processing

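Under the 17 alternatives with a test, 159 of 170 fold changes of the clock genes kept their direction and their side of an unadjusted p of 0.05, 9 changed sign and 2, both of Per1, passed it. Other filters, limma without trend or with robust empirical Bayes, and the exact permutation test leave the fold change of a gene as it is, so only the p-value could differ there. As a ratio of mean FPKM, which has no test, 9 of 10 kept their direction. Weighting libraries by quality made 1 clock gene (Per1) lower at an unadjusted p under 0.05, with 887 genes lower and 193 higher in all. With no filter on low values 273 genes were lower and 195 higher, since more genes were tested. Median centring left 0 clock genes with the mutant group underneath. With quantile normalization the log2 fold change of Dbp was 0, and as a ratio of mean FPKM it was 0.16. Without 1 library at a time, from 0 to 1 clock genes were lower at an unadjusted p under 0.05 (Per1, without KO_117), 1 to 3 had the mutant group underneath and 0 to 1 (Nr1d2, without KO_117) above it. Arntl was among those underneath in each case, which was fixed in advance, since leaving out a library cannot make groups that lie apart overlap. Added to it were Per3 without WT_116, Per1 without KO_117, and Cry2 and Dbp without KO_214. Groups are apart more often with fewer libraries: of 14151 genes, 217 had the mutant group underneath with all 7 libraries, 424 without WT_116, 794 without KO_214 and 1725 without KO_117, and 721 had it above without KO_117, against 111. Over all genes, 70 to 410 were lower and 45 to 354 higher at an unadjusted p under 0.05, with the top counts without KO_117, and 0 to 1 passed the adjusted threshold. Leaving out 1 library, the log2 fold change ran from -0.20 to 0.24 for Clock, -0.35 to 0.04 for Cry1, -0.31 to 0.10 for Nr1d1 and -0.59 to 0.30 for Dbp. Likewise r ran from -0.41 to 0.44 for Arntl and Nr1d1 and from -0.35 to 0.52 for Nr1d1 and Nr1d2, which gave 0.04 when each group was centred on its mean. The cause of these changes was not tested. In each setting 0 of the 45 pairs passed the adjustment, which with 6 libraries 1 pair alone could not. No paired analysis was possible because the groups share no mouse numbers. Depth is unknown, and the number of libraries limits the precision.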
